A study of Mus musculus with 11 samples.

Results

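The 10 genes described here encode innate receptors for microbial products: the Toll-like receptors *Tlr1*, *Tlr2*, *Tlr4*, *Tlr6*, *Tlr7*, *Tlr8*, *Tlr9* and *Tlr13*, and the 2 LPS co-receptors *Cd14* and *Ly96*. They were chosen by symbol from a fixed list, and each has 1 row among the 12932 genes of the RNA-seq table. The table covers alveolar macrophages (AMs) of 9-week-old mice of the C57BL/6J background and both sexes, all homozygous for floxed *Rxra* and *Rxrb* (Rxrab fl/fl), which encode the retinoid X receptors RXRα and RXRβ. Control mAMs (mAM_WT, 4 libraries) came from littermates without Cre (CD11cCre-) and were sorted as CD11b-/SiglecF+ mature AMs. RXR-deficient mAMs (mAM_KO, 4 libraries) and RXR-deficient immature AMs (ImmAMs, CD11b+/SiglecF+; Imm_KO, 3 libraries with the replicate numbers 2 to 4) came from CD11cCre+ mice, in which the *Cd11c* promoter drives Cre. ImmAMs of control mice were not analysed here, so immaturity and genotype cannot be told apart where ImmAMs are compared with control mAMs. The study used 3 of the 4 mAM_KO libraries. Replicate 4 was therefore kept out of the means and tests below, its value is given beside the others, and all 11 libraries entered an alternative fit.

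Toll-like receptors (TLRs) recognize conserved microbial molecules. TLR1, TLR2, TLR4 and TLR6 act at the cell surface. TLR2 pairs with TLR1 or TLR6 to bind bacterial lipopeptides, whereas TLR4 binds lipopolysaccharide (LPS) through its partner MD-2, encoded by *Ly96*, after CD14 has handed the LPS over. TLR7, TLR8, TLR9 and TLR13 are endosomal receptors of nucleic acids: single-stranded RNA for TLR7 and for human TLR8, unmethylated CpG DNA for TLR9 and bacterial ribosomal RNA for TLR13. Most TLRs signal through the adaptor MyD88 to NF-κB and IRF factors. AMs live at the air surface and meet inhaled microbes first.

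In short, none of the 10 genes passed the test between RXR-deficient and control mAMs, and 6 passed it between RXR-deficient ImmAMs and control mAMs. In ImmAMs, *Cd14* was 3.79-fold, *Ly96* 2.30-fold and *Tlr7* 1.63-fold above control mAMs, *Tlr2* was at 0.705 of the control level, and *Tlr9* and *Tlr1*, barely read in control mAMs, were 30.5-fold and 10.7-fold higher. The last pair entered the test only through the ImmAM libraries, and 4 of the other 8 genes passed it, beside 48.1% of all genes. *Tlr4*, *Tlr6*, *Tlr8* and *Tlr13* did not pass the test in either comparison with control mAMs.

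Levels are given as CPM, a read count scaled to the total of its library. The depth was 16659960 to 37873532 reads per library. *Siglecf*, a defining AM marker, was read at 244 to 264 CPM in control mAMs, at 198 to 241 in RXR-deficient mAMs (replicate 4 included) and at 19.3 to 19.7 in ImmAMs, although the gate selects SiglecF+ cells. *Marco*, *Ear1*, *Krt79*, *Fabp4*, *Car4*, *Mrc1* and *Itgax* of the AM list were also lower in every ImmAM library than in any control library. *Marco* was at 10.9 to 13.8 CPM in ImmAMs against 310 to 377 in control mAMs, and *Itgax* at 1401 to 1453 against 1520 to 1687. *Chil3* and *Pparg* did not follow. *Chil3* was at 20272 to 21939 CPM in ImmAMs against 13182 to 18297 in control mAMs, and *Pparg* at 215 to 219 against 174 to 220. The 10 AM markers, *Chil3* taking most of the sum, summed to 19534 to 25561 CPM in control mAMs and to 23523 to 25315 in ImmAMs. *Itgam*, which encodes CD11b, was at 3.52 to 3.85, 3.93 to 9.95 and 168 to 174 CPM in the 3 groups. Counts of the deleted genes ranged from 310 to 380 CPM for *Rxra* in control mAMs and from 334 to 419 in RXR-deficient mAMs, and from 51.4 to 72.1 and from 39.3 to 55.3 for *Rxrb*. The table gives 1 value per gene and does not separate the floxed exons, so these values check nothing about the deletion. *Xist* and 4 Y-linked genes were read in all 11 libraries, so a library may hold RNA of more than 1 mouse.

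*Tlr9*, *Tlr1* and *Tlr2* are the genes with the largest rises and the only fall in ImmAMs, and the stretches before their transcription starts are shown for that reason. The sequences are the genomic bases upstream of the outermost annotated start, read 5′ to 3′ on the gene's strand (RefSeq, GRCm38.p6). Capitals mark matches, on either strand, to 5 searched motifs: the nuclear receptor half-site AGGTCA, the AP-1 site TGACTCA, the core of the PU.1 site GAGGAAGT, the interferon response element GAAANNGAAA and the κB consensus.
Tlr9 (chr9:106222348-106222597, plus strand): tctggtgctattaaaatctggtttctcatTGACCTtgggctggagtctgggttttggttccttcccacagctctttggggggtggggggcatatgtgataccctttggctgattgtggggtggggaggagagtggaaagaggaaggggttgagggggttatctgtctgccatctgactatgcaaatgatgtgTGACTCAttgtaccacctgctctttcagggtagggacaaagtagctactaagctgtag
Tlr1 (chr5:64933564-64933808, minus strand): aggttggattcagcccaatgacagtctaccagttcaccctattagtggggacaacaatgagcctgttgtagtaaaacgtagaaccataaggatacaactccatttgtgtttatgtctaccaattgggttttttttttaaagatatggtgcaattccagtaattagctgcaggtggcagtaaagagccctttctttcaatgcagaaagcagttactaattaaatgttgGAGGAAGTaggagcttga
Tlr2 (chr3:83841768-83841858, minus strand): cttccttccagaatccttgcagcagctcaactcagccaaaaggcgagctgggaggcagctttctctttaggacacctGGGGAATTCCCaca

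The *Tlr9* stretch held 1 half-site, in reverse orientation, and 1 AP-1 site. The *Tlr1* stretch held 1 PU.1 core and the *Tlr2* stretch a palindromic κB match. The searched windows ran past the printed stretches, and there *Tlr2* held a half-site at base -15 and another κB match at base -8 from the start, and *Tlr9* a PU.1 core at base 10 after it. Over the 32851 promoters of the reference table, read from 250 bases before to 50 after the start, 16.3% held a half-site, 5.20% the AP-1 site, 3.20% the PU.1 core, 3.44% the interferon response element and 4.51% the κB consensus. These matches describe letters, and binding data were not analysed here. The study mapped RXRα binding in mAMs and placed *Tlr2* among the genes that it assumes to be under direct RXR control. Of the 10 genes, *Cd14* was left out of this search, and 6 of the others matched an entry of this table.

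The genes lie on 6 autosomes and the X chromosome (GRCm38, GENCODE vM21). *Tlr1* (chr5:64924679-64933563) and *Tlr6* (chr5:64952031-64960097) are neighbors on the minus strand and near-identical over part of their length: of the windows of 60 bases, the read length, 13.2% of those in *Tlr1* transcripts and 10.8% of those in *Tlr6* transcripts also occurred in another gene, and 400 windows were shared between the pair. Counts of both are uncertain, since the software that counted the reads divides shared reads by estimate. For *Tlr1* the shared part can outweigh its own count: 10.8% of the 1465 *Tlr6* reads in ImmAMs would be 159 reads, more than the 97 reads counted for *Tlr1* there. In control mAMs the same share of 2474 *Tlr6* reads would be 268, yet only 15 reads were counted for *Tlr1*. *Tlr8* (chrX:167242696-167264329) and *Tlr7* (chrX:167304929-167330558) are neighbors too, and *Tlr13* (chrX:106143204-106160493) is on the same chromosome. No window of *Tlr2* (chr3:83836272-83841767), *Tlr4* (chr4:66827584-66930284), *Tlr7*, *Tlr8*, *Tlr9* (chr9:106222598-106226883), *Tlr13*, *Ly96* (chr1:16688051-16709611) or *Cd14*, on chromosome 18, occurred in another gene.

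The levels of the 10 genes relative to each other were read as CPM per kilobase of exon. In control mAMs, *Tlr2* was highest at 195 CPM per kb. It was followed by *Tlr8* at 69.7, *Tlr7* at 48.0 and *Cd14* at 43.8, then by *Tlr4* at 26.0 and *Tlr13* at 25.9, *Ly96* at 7.65, *Tlr6* at 6.03, *Tlr9* at 0.128 and *Tlr1* at 0.0502. *Tlr2* stood above all other members in each control library, whereas the ranges of *Tlr8* and *Tlr7*, of *Tlr7* and *Cd14*, of *Tlr4* and *Tlr13*, and of *Tlr9* and *Tlr1* overlapped. The order of the means was the same in RXR-deficient mAMs. In ImmAMs, *Cd14* led at 165 CPM per kb, above *Tlr2* at 137, and the libraries of this pair did not overlap. *Tlr7* at 77.2 stood above *Tlr8* at 67.1 with overlapping libraries, and *Tlr1* was again last at 0.535.

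**Figure D1:**
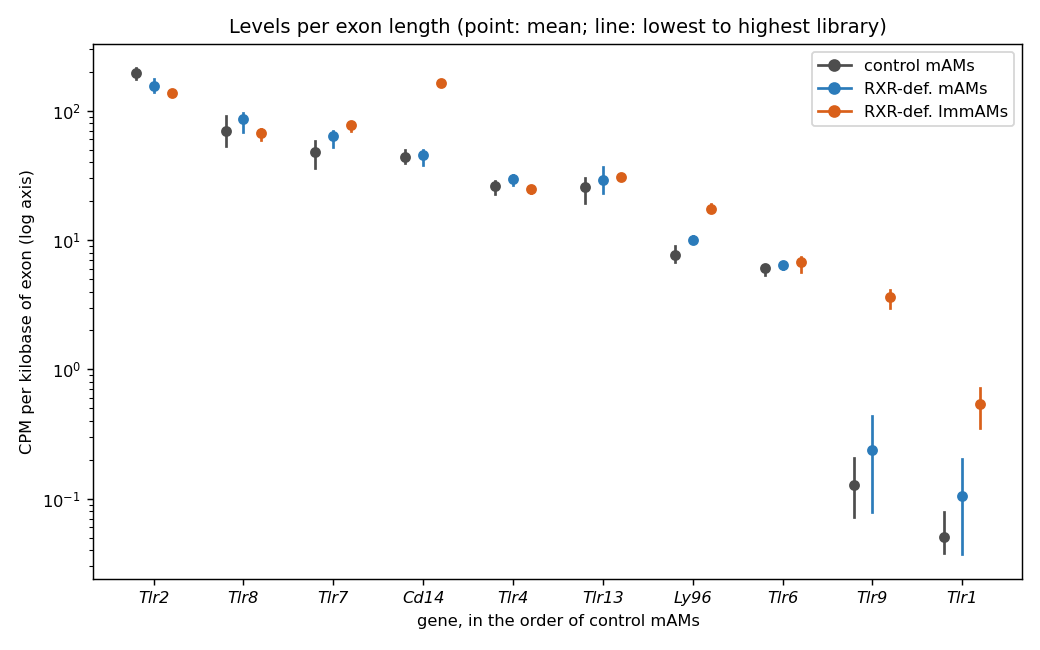
Mean CPM per kilobase of exon (log axis) of the 10 genes in control mAMs, RXR-deficient mAMs and RXR-deficient ImmAMs; the vertical lines run from the lowest to the highest library. *Tlr2* leads in both mAM groups, *Cd14* leads in ImmAMs, and *Tlr9* and *Tlr1* are last in all groups.

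The first question is whether loss of RXRs alters these receptors in cells that still sort as mature AMs. Of all 12889 genes tested by limma on log2 CPM, 4.84% were called between RXR-deficient and control mAMs at an adjusted p under 0.05 (Benjamini-Hochberg), 2.25% higher and 2.59% lower. Of the 10 genes, 0 were called. At an unadjusted p under 0.05 there were 4 of them (*Tlr2*, *Tlr4*, *Tlr7* and *Ly96*), and 3042 of all genes. Of the 10, edgeR called 0, limma-voom 0 and DESeq2 2. Of all genes, edgeR called 566, limma-voom 528 and DESeq2 1352, beside 624 for limma. With all 11 libraries, 2.61% of all genes and again 0 members were called. The median difference of the 10 was 0.26 on the log2 scale, beside -0.00 over all genes. It includes *Tlr1* and *Tlr9*, which were tested only through the ImmAM libraries. Over the other 8 it was 0.18, beside -0.006 over all genes that reached 1 CPM in 3 mAM libraries.

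The 4 genes of smallest p differed little in level. *Tlr2* was read at 642, 539, 640 and 530 CPM in control mAMs and at 531, 460 and 424 CPM in RXR-deficient mAMs (replicate 4, 483). Its difference was -0.32 (SE 0.0918) on the log2 scale with an adjusted p of 0.0646 in limma, and the lowest control library lay within the RXR-deficient range. *Tlr7* was read at 231, 184, 202 and 143 CPM in control mAMs and at 276, 208 and 272 CPM in RXR-deficient mAMs (replicate 4, 193). The groups overlapped, and the difference was 0.42 (SE 0.144, adjusted p = 0.105, limma). DESeq2 called both genes, *Tlr2* lower (adjusted p = 0.0166) and *Tlr7* higher (adjusted p = 0.0392). In limma, *Tlr7*, which is X-linked, was called with *Xist* as a covariate (0.46, adjusted p = 0.0445) and without control replicate 1 (0.52, adjusted p = 0.0441) or RXR-deficient replicate 2 (0.55, adjusted p = 0.0470). With all 11 libraries its adjusted p was 0.314.

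*Ly96* was read at 4.95, 5.73, 4.30 and 4.35 CPM in control mAMs and at 6.76, 6.22 and 6.12 CPM in RXR-deficient mAMs. These 3 libraries lay above all control libraries, and replicate 4 at 5.61 CPM fell inside the control range. The difference was 0.41 on the log2 scale (SE 0.156, adjusted p = 0.138, limma). *Tlr4*, the receptor that MD-2 serves, was read at 156, 137, 152 and 125 CPM in control mAMs and at 170, 174 and 147 CPM in RXR-deficient mAMs, and replicate 4 was lowest of the 4 at 119. Its difference of 0.20 had a 95% interval from 0.01 to 0.39 and an adjusted p of 0.194 in limma. *Cd14* had a mean of 71.9 ± 8.01 CPM (SD, n = 4) in control mAMs and of 74.2 ± 10.3 (SD, n = 3) in RXR-deficient mAMs, with a 95% interval of the difference from -0.18 to 0.27. The co-receptors of LPS thus gave no call in mAMs, and for *Cd14* the interval leaves room for a rise or a fall of less than 0.3 on the log2 scale.

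The other 5 gave wider or smaller differences. *Tlr8* differed by 0.31 (adjusted p = 0.260), *Tlr13* by 0.15 (0.593) and *Tlr6* by 0.10 (0.621) on the log2 scale in limma. *Tlr1* differed by 0.79 with a 95% interval from -0.92 to 2.49, and *Tlr9* by 0.69 with an interval from -0.52 to 1.90. Both rest on few reads, 15 over the 4 control libraries and 18 over the 3 RXR-deficient ones for *Tlr1*, and 43 and 47 for *Tlr9*. The highest mAM value of both genes was in RXR-deficient replicate 3, at 0.637 CPM for *Tlr1* and 1.52 CPM for *Tlr9*. The same library had the highest *Itgam* (9.95 CPM) and *Cx3cr1* (8.34 CPM) of the mAM libraries, both genes being far higher in ImmAMs. The part of such cells in these values was not tested.

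**Figure D2:**
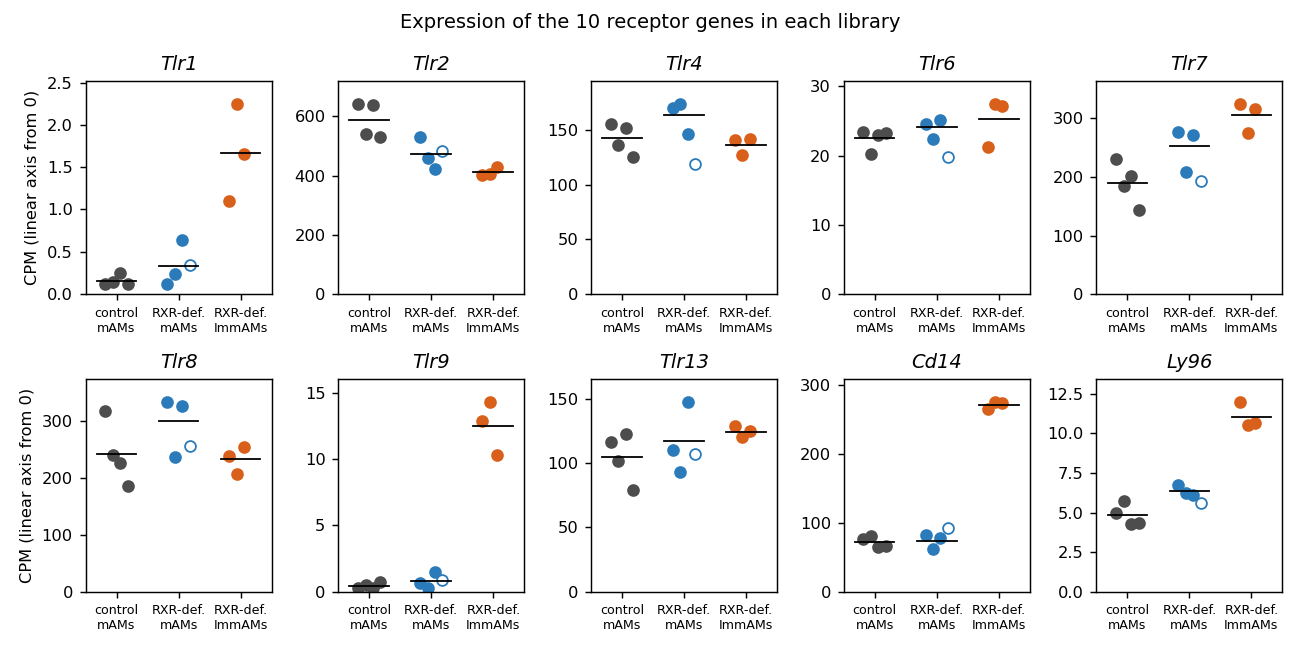
CPM of each of the 10 genes in every library (linear axes from 0; points are libraries and the horizontal line is the group mean). The open circle is RXR-deficient mAM replicate 4, which is not in the mean. *Cd14*, *Ly96*, *Tlr9* and *Tlr1* of the 3 ImmAM libraries lie above every mAM library.

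The second question is how ImmAMs differ from control mAMs. Here 48.1% of all genes were called, 22.8% higher and 25.3% lower (limma). Of the 10 members, 5 were called higher and 1 lower, and with all 11 libraries, where 45.5% of all genes were called, the count was again 6. The median of the members was 0.48 on the log2 scale and that of all genes -0.00. *Tlr1* and *Tlr9* reached 1 CPM in 3 libraries only with the help of the ImmAMs and so had to be high there to be tested. The other 8 members passed this filter in mAMs alone. Of these, 3 were called higher and 1 lower, with a median of 0.21, beside 48.0% of the 12278 genes that passed in mAMs alone, so the count is near that of all genes. In bulk RNA, a change in the number of expressing cells and in the RNA per cell cannot be told apart.

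*Cd14* changed most clearly. It was read at 75.8, 81.2, 64.4 and 66.1 CPM in control mAMs and at 265, 276 and 273 CPM in ImmAMs, well apart. The difference was 1.92 on the log2 scale (SE 0.103, adjusted p = 1.04e-08, limma), 3.79-fold. *Ly96* was read in ImmAMs at 12.01, 10.6 and 10.6 CPM, against 4.30 to 5.73 CPM in control mAMs. All 3 ImmAM libraries were above all control libraries, by 1.20 on the log2 scale (SE 0.156, adjusted p = 3.49e-05, limma). *Tlr4* itself was read at 141, 127 and 142 CPM in ImmAMs, inside the control range of 125 to 156. Its difference was -0.05 with a 95% interval from -0.25 to 0.14 and an adjusted p of 0.643 in limma, so that both co-receptors rose while the receptor did not pass the test.

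*Tlr2* was the only member to fall. It was read at 403, 407 and 428 CPM in ImmAMs, below every control library (530 to 642 CPM). The difference was -0.50 on the log2 scale (SE 0.0918, adjusted p = 5.66e-04, limma). Its partners differed from each other. *Tlr6* was read at 21.3, 27.5 and 27.2 CPM in ImmAMs and at 23.4, 20.2, 23.0 and 23.3 CPM in control mAMs, overlapping, with a difference of 0.16 (adjusted p = 0.249, limma). *Tlr1* was read at 1.10, 2.25 and 1.65 CPM in ImmAMs and at 0.119 to 0.244 CPM in control mAMs. Its difference was 3.42 (SE 0.785, adjusted p = 0.00301, limma) and rested on 97 reads in ImmAMs against 15 in control mAMs, a count that the shared sequence with *Tlr6* leaves uncertain. With 1 CPM added before the logarithm it was 1.19, still called. Per kilobase, *Tlr1* in ImmAMs remained far below *Tlr6* at 6.79.

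Among the endosomal receptors, *Tlr9* gave the largest difference of the 10. It was read at 12.9, 14.4 and 10.3 CPM in ImmAMs (721 reads), at 0.251, 0.543, 0.282 and 0.712 CPM in control mAMs and at 0.669, 0.276 and 1.52 CPM in RXR-deficient mAMs (replicate 4, 0.893). The ImmAM libraries lay above all mAM libraries. The difference from control mAMs was 4.93 on the log2 scale (SE 0.560, adjusted p = 1.04e-05, limma) and ranged from 3.23 to 5.20 over all alternatives. *Tlr9* is known for high expression in B cells and plasmacytoid dendritic cells. Of the B cell marker list, 2 of 6 genes are in the table, and their summed level was 0.555 to 5.86 CPM in control mAMs, 0.415 to 2.68 in RXR-deficient mAMs and 5.61 to 6.51 in ImmAMs. Of 5 plasmacytoid dendritic cell markers, 0 are in the table. The part of B cells in the *Tlr9* values was not tested.

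*Tlr7* was read at 325, 275 and 317 CPM in ImmAMs, above every control library (143 to 231 CPM), with a difference of 0.70 (SE 0.144, adjusted p = 0.00135, limma). Its neighbor *Tlr8* was read at 239, 207 and 253 CPM in ImmAMs and at 317, 239, 226 and 186 CPM in control mAMs. The groups overlapped, and the difference was -0.03 with a 95% interval from -0.38 to 0.31 (adjusted p = 0.880, limma). *Tlr13*, at 129, 121 and 125 CPM against 117, 102, 123 and 79.1 CPM, differed by 0.26 (adjusted p = 0.188, limma). *Tlr7*, *Tlr8* and *Tlr13* are X-linked, and *Xist*, read from the inactive X chromosome, ranged from 119 to 539 CPM in control mAMs and from 302 to 345 CPM in ImmAMs. With *Xist* as a covariate, *Tlr7* was still called higher in ImmAMs.

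**Figure D3:**
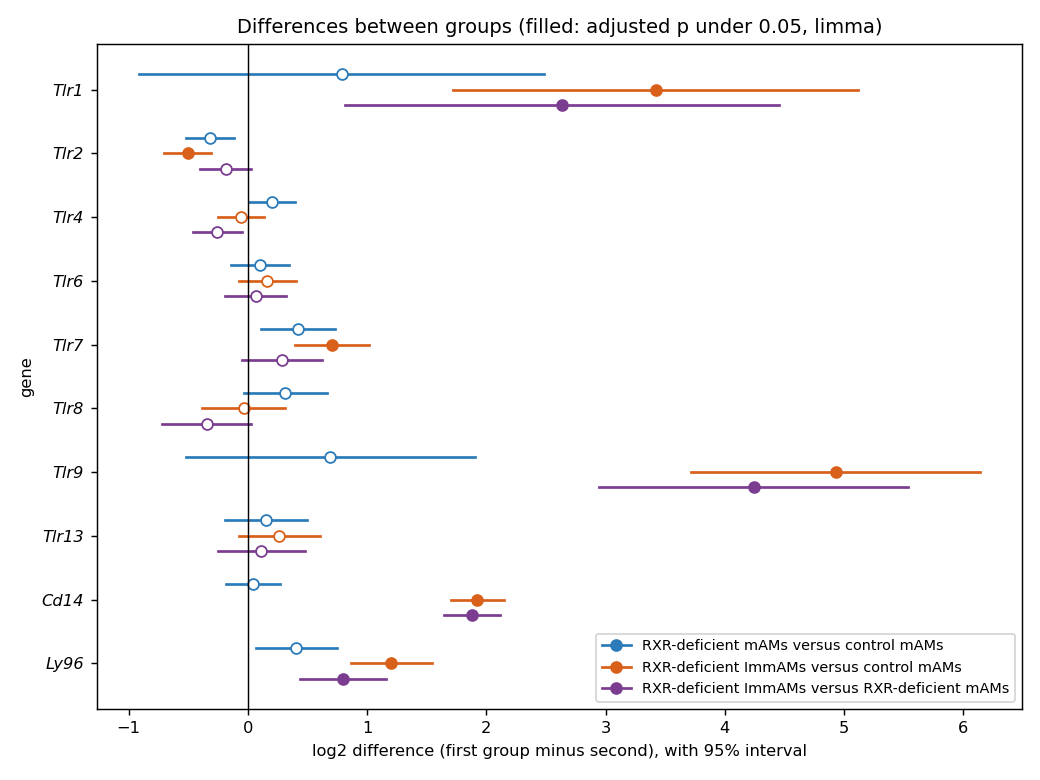
Log2 differences of the 10 genes in 3 comparisons (points) with 95% intervals (lines); filled points passed an adjusted p of 0.05 in limma. No point of RXR-deficient mAMs versus control mAMs is filled, and the intervals of *Tlr1* and *Tlr9* are the widest.

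The third comparison sets ImmAMs against mAMs of the same genotype. It shares the ImmAM libraries with the comparison above and the RXR-deficient mAM libraries with the first one, so the 3 are not independent. Of all genes, 37.9% were called, 17.7% higher and 20.2% lower, and with all 11 libraries 38.1%. Of the members, 4 were called, all higher, and 2 of these, *Tlr1* and *Tlr9*, were tested only through the ImmAMs. Of the other 8, 2 were called, beside 37.9% of all genes that passed in mAMs alone. *Cd14* rose by 1.88 on the log2 scale (adjusted p = 4.57e-08, limma), *Tlr9* by 4.24 (1.04e-04), *Tlr1* by 2.63 (0.0252) and *Ly96* by 0.80 (0.00221). The call of *Tlr1* was lost without RXR-deficient mAM replicate 1 (2.05, adjusted p = 0.0828) or replicate 2 (2.56, adjusted p = 0.0571).

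Of the members, 0 were called lower here by limma, edgeR or limma-voom, and 1, *Tlr4*, by DESeq2 (adjusted p = 0.0487). *Tlr4* lay at the threshold: the ImmAM libraries (127 to 142 CPM) lay below the 3 RXR-deficient mAM libraries (147 to 174 CPM), and the difference was -0.26 with an adjusted p of 0.0505 in limma. In limma it was also called with 1 CPM added (adjusted p = 0.0478), with the filter at 5 CPM (0.0467), with no TMM factor (0.0440) and with only the 2 groups compared (0.0309). Among the fits without 1 library, it was called without control replicate 1 (adjusted p = 0.0460), control replicate 4 (0.0248) or RXR-deficient mAM replicate 3 (-0.33, 0.0212), whereas with all 11 libraries the value was -0.14 (adjusted p = 0.385). *Tlr8* differed by -0.35 (adjusted p = 0.131) and was called lower in ImmAMs without RXR-deficient mAM replicate 2 (-0.50, adjusted p = 0.0384) and with *Xist* as a covariate (-0.52, adjusted p = 0.00645). That library had the lowest *Xist* level of the 11, 55.5 CPM. *Tlr2* and *Tlr7* differed by -0.19 (adjusted p = 0.154) and 0.29 (adjusted p = 0.164), between mAMs and ImmAMs of the RXR-deficient mice.

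Ratios of 2 members within a library do not depend on its scaling. They were chosen after the values were seen, are given per kilobase and were not tested. The ratio of *Tlr7* to *Tlr8* was 0.638 to 0.784 in control mAMs, 0.727 to 0.771 in RXR-deficient mAMs (replicate 4, 0.662) and 1.10 to 1.19 in ImmAMs. The ImmAM libraries were thus the only ones in which *Tlr7* exceeded *Tlr8*. *Tlr2* stood at 7.15 to 7.68 times *Tlr4* in control mAMs, at 4.80 to 5.68 in RXR-deficient mAMs and at 5.18 to 5.79 in ImmAMs. RXR-deficient mAM replicate 4, at 7.35, fell in the control range. *Cd14* stood at 1.41 to 1.98 times *Tlr4* in control mAMs, at 1.20 to 1.76 in RXR-deficient mAMs (replicate 4, 2.59) and at 6.24 to 7.21 in ImmAMs. The ratio of *Ly96* to *Tlr4* was 0.245 to 0.363, 0.310 to 0.361 (replicate 4, 0.407) and 0.650 to 0.736.

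**Figure D4:**
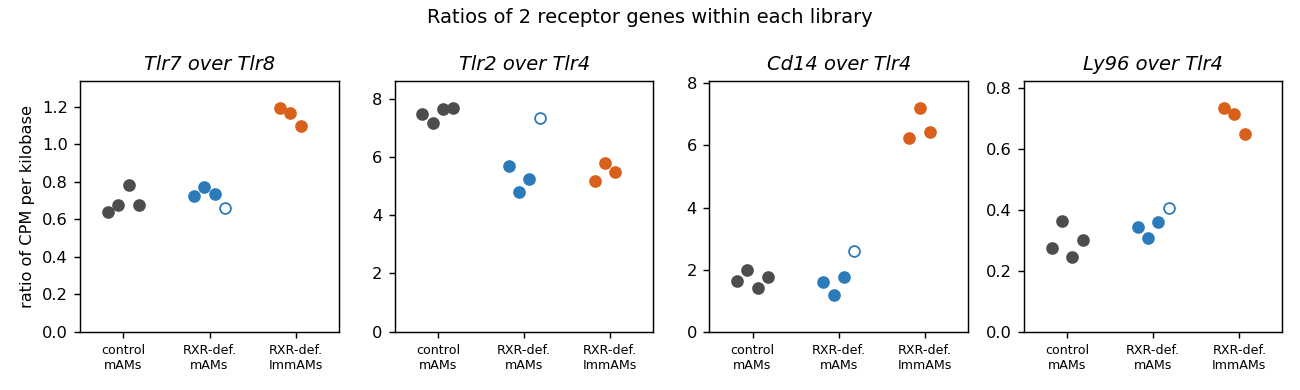
Ratios of CPM per kilobase of 2 genes within each library (points; linear axes from 0), by group. The open circle is RXR-deficient mAM replicate 4. The *Tlr7* to *Tlr8* ratio exceeds 1 in the 3 ImmAM libraries alone, and replicate 4 lies with control mAMs for *Tlr2* over *Tlr4*.

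Genes of the rest of the pathway were counted in 6 lists of 97 genes, of which 83 were in the table and tested. Between RXR-deficient and control mAMs, 2 of the 83 were called higher and 2 lower (limma), beside 2.25% and 2.59% of all genes. Among the 79 that passed the filter in mAMs alone, 5.06% were called, beside 4.94% of all such genes. The count is thus near that of all genes. The median difference of the 83 was 0.04. *Tlr3*, the endosomal receptor for double-stranded RNA, rose by 0.64 (SE 0.106, adjusted p = 0.00787), from 16.5 to 25.8 CPM. *Socs3*, an inhibitor of cytokine signaling, rose by 1.07 (SE 0.216, adjusted p = 0.0187). *Pik3ap1*, an adaptor that links TLRs to phosphoinositide 3-kinase, fell by 0.37 (adjusted p = 0.00645), and *Myd88* fell by 0.29 (adjusted p = 0.0311). The *Myd88* call was lost with all 11 libraries (adjusted p = 0.0618), with the replicate block (0.0807), without a variance trend (0.0730), with only the 2 groups compared (0.0653), and without control replicate 2 (0.0906) or 3 (0.0655) or RXR-deficient replicate 1 (0.0783) or 3 (0.127). That of *Socs3* was lost without a variance trend (0.0719), with only the 2 groups compared (0.0582), and without control replicate 2 (0.0570) or RXR-deficient replicate 1 (0.0796) or 3 (0.0660). DESeq2 called 13 of the 83, and limma called 8 without control replicate 1 or RXR-deficient replicate 2, and 2 without control replicate 2 or RXR-deficient replicate 3. Of all genes, DESeq2 called 1352, beside 624 in the main fit. There limma called 861 without control replicate 1 and 851 without RXR-deficient replicate 2. It called 220 without control replicate 2 and 162 without RXR-deficient replicate 3.

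In 3 lists limma and edgeR called 0 genes in mAMs. These were ligand delivery and receptor trafficking (15 tested, 4 at an unadjusted p under 0.05, 2 called by DESeq2), the transcription factors (8 tested, 4 and 2) and the LPS-inducible genes (17 tested, 3 and 1). Of all 12889 genes tested, 3042 were at an unadjusted p under 0.05, and DESeq2 called 1352. The LPS-inducible list, genes that macrophages switch on after LPS, had a median of 0.33, beside -0.00 over all genes. Among its 14 genes that passed the filter in mAMs alone, the median was 0.27, beside -0.006 over all such genes.

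Between ImmAMs and control mAMs, 29 of the 83 were called higher and 17 lower, beside 22.8% and 25.3% of all genes. Of the 83, 4 reached 1 CPM in 3 libraries only with the help of the ImmAMs (*Tlr11*, *Ccl2*, *Ccl4* and *Saa3*). Among the other 79, the counts were 26 higher and 17 lower (32.9% and 21.5%), beside 21.4% and 26.5% of all genes that passed in mAMs alone. *Tlr3* was 0.76 higher (adjusted p = 6.46e-05), and *Tlr5*, the flagellin receptor, fell by 1.52 (adjusted p = 4.13e-07), from 31.7 to 11.02 CPM. *Tlr11*, named after its values were seen, was at 3.42 CPM in ImmAMs and at 0.831 CPM in control mAMs, and had to be high in ImmAMs to be tested. Of 15 genes of ligand delivery and trafficking, 7 (46.7%) were higher and 0 lower by limma, with 8 at an unadjusted p under 0.05, 7 called by edgeR and 8 by DESeq2. Of all 12889 genes tested, 7022 were at an unadjusted p under 0.05, edgeR called 6094 and DESeq2 6284. *Ly86*, which encodes MD-1, the partner of the TLR4-like receptor CD180, rose by 2.59 (adjusted p = 2.53e-09), from 17.3 to 104 CPM. *Lgmn* (1.47), a protease that cleaves endosomal TLRs, and *Rab7b* (1.32), which promotes lysosomal degradation of TLR4, rose too. *Unc93b1*, the chaperone that carries TLR7, TLR9 and TLR13 to endosomes, rose by 0.68 (adjusted p = 2.28e-05), and *Ctss*, another protease of this compartment, by 1.11 (adjusted p = 2.76e-07). Both were named after their values were seen.

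Of 24 adaptors and kinases, 4 (16.7%) were higher and 11 (45.8%) lower in ImmAMs. *Pik3ap1* fell by 2.18 (adjusted p = 5.53e-11), *Ikbke* by 1.39 (0.00167) and *Myd88*, from 146 to 75.1 CPM, by 0.96 (9.56e-08). *Irak2*, a kinase of the MyD88 complex, rose by 1.01 (adjusted p = 5.05e-07), from 81.8 to 164 CPM. Of 8 transcription factors, 2 (25.0%) were higher and 1 (12.5%) lower, in all 37.5% beside the 48.1% of all genes. *Irf5*, which acts below TLR7 and TLR9, rose by 1.53 (adjusted p = 2.00e-09), from 63.0 to 182 CPM, *Rel* rose by 0.51 (2.09e-04) and *Irf3* fell by 0.42 (0.00565).

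Of 16 brakes on the pathway, 4 (25.0%) were higher and 2 (12.5%) lower, again 37.5% in all. *Socs3* rose by 2.91 (adjusted p = 1.94e-07), from 7.77 to 56.6 CPM, and *Ptpn6*, the phosphatase SHP-1, fell by 0.52 (1.60e-05). Of the 26 LPS-inducible genes listed, 17 were in the table and tested. The other listed genes, *Il6*, *Il10*, *Il12b*, *Il23a*, *Ccl5*, *Ptgs2*, *Nos2*, *Ifnb1* and *Cd40*, were absent from it. Of the 17 tested, 10 were higher and 2 lower, with a median of 1.26. *Ccl2*, *Ccl4* and *Saa3* had to be high in ImmAMs to be tested. Among the other 14, 8 (57.1%) were higher and 2 (14.3%) lower, with a median of 1.005. Of all genes that passed in mAMs alone, 21.4% were higher and 26.5% lower. *Marcksl1* rose by 2.37 (adjusted p = 1.97e-05), *Il1b* by 2.19 (9.76e-05) and *Clec4e* by 1.31 (3.42e-05), while *Icam1* fell by 0.51 (3.63e-04). *Tnf*, named as the best known of the list, was not called (-0.51, adjusted p = 0.172). Against RXR-deficient mAMs, 27 of the 83 were higher and 14 lower in ImmAMs, beside 17.7% and 20.2% of all genes. Among the 79 that passed in mAMs alone, 24 (30.4%) were higher and 14 (17.7%) lower. The calls included *Irf5* (1.40, adjusted p = 1.45e-08), *Ly86* (2.22, 3.40e-08), *Tlr5* (-1.07, 2.86e-05) and *Myd88* (-0.67, 8.13e-06).

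**Figure D5:**
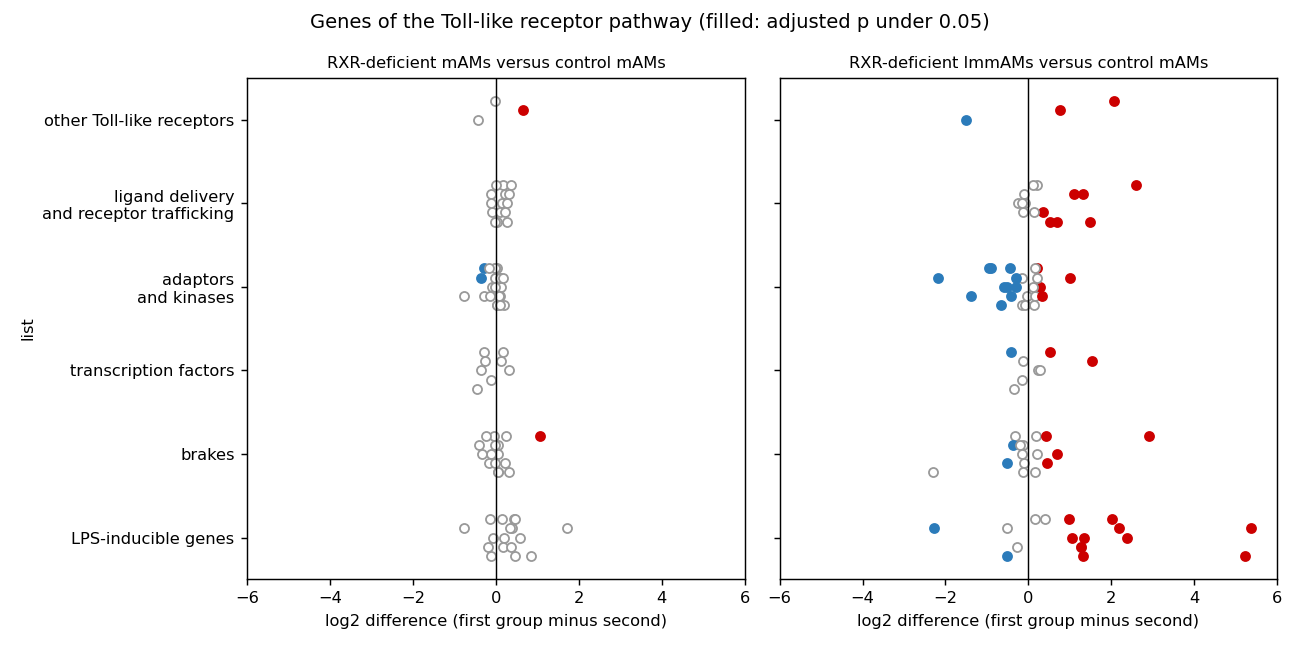
Log2 differences of the tested genes in 6 pathway lists, for RXR-deficient mAMs (left) and RXR-deficient ImmAMs (right), each versus control mAMs; each point is a gene, filled red where called higher and filled blue where called lower. In mAMs 4 points are filled, in ImmAMs 46.

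Marker lists of several other cell types had higher sums in ImmAMs, and the sums are given without RXR-deficient mAM replicate 4. The sum of the epithelium list, with 2 of 5 genes in the table, went the other way. It was 7.92 to 14.2 CPM in control mAMs, 7.81 to 13.0 in RXR-deficient mAMs and 1.42 to 2.80 in ImmAMs. Only *Epcam* fell, from 7.34 to 13.5 CPM in control mAMs to 0.765 to 1.04 in ImmAMs. *Scgb1a1* was at 0.319 to 0.985 CPM in control mAMs and at 0.604 to 1.76 in ImmAMs. The 4 interstitial macrophage markers in the table, of 6 listed, summed to 1.17 to 2.16 CPM in control mAMs, 3.10 to 11.5 in RXR-deficient mAMs and 230.0 to 243 in ImmAMs. The 4 of 6 monocyte markers summed to 57.1 to 65.0, 48.8 to 62.3 and 258 to 261 CPM. Most of the ImmAM sum is *Itgam* (168 to 174 CPM), which the gate selects, and *Treml4* of this list went the other way, from 39.8 to 50.7 CPM in control mAMs to 2.85 to 3.49 in ImmAMs. Of the 6 neutrophil markers, 5 summed to 30.7 to 39.5, 31.6 to 40.6 and 51.7 to 61.9 CPM, and 2 of 6 conventional dendritic cell markers to 5.40 to 7.24, 6.16 to 8.12 and 20.7 to 24.1 CPM. The T cell list had 0 of 5 genes in the table. Monocytes and interstitial macrophages are known to express *Cd14*, and the part of such cells in the *Cd14*, *Ly96*, *Tlr1* and *Tlr9* values was not tested. Genes of the stress of tissue dissociation summed to 314 to 439, 334 to 541 and 392 to 430 CPM. The sum hides members that differ: *Jun* (57.1 to 68.5 CPM) and *Junb* (129 to 147 CPM) were higher in each ImmAM library than in any mAM library (at most 55.5 and 124 CPM), whereas *Fos*, at 148 to 161 CPM, lay inside the mAM range. The part of this stress in the values of the 10 genes was not tested.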

How the data were processed

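RNA of sorted AMs was sequenced single-end (60 bases). Adapter trimming (Cutadapt), estimated counts against GRCm38 (RSEM 1.3.1) and TMM normalization in limma were done by the authors. The values deposited by the authors are CPM per library on TMM-scaled library sizes, for genes at 1 CPM in at least 3 samples. Each value was a whole read count plus 0.5, times a step per library. Reads recovered from the deposited CPM were whole within 0.01 for 100% of the values.

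CPM were analysed as log2, without a further pseudocount. limma 3.58.1 (R 4.3.3) was fitted to 3 group means in 10 libraries, with a variance trend, over 12889 genes at 1 CPM in 3 libraries. P-values were two-sided, adjusted by Benjamini-Hochberg over all these genes, with a threshold of 0.05. They measure the spread between the libraries, which the series describes as individual biological replicates. How many mice each library holds is not given in the sources used here, and the reads of *Xist* and Y-linked genes in every library leave pooling possible, so that n counts libraries and their spread may be smaller than that between mice. The recovered reads were also tested with edgeR 4.0.16 (quasi-likelihood), limma-voom and DESeq2 1.42.0. Other alternatives were all 11 libraries, 1 CPM added, no filter, a filter at 5 CPM, no TMM factor, no variance trend, only the 2 groups compared, a replicate block, *Xist* as a covariate and each library left out. The fits were tested on simulated data.

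The members and lists were chosen with earlier results of these data known. Named genes are the members and, per pathway list and comparison, up to 3 called genes of largest rise and fall with a mean of at least 5 CPM and no overlap of libraries; a part of these is given. Exon lengths are unions over coding transcripts (GENCODE vM21). Shared sequence and promoter motifs were found by exact search. Depth limits *Tlr1* and *Tlr9* in mAMs, and other rare genes.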

Additional observations from a re-analysis of the deposited data

Results flagged for a closer look

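*Tlr6* in control mAM replicate 2 was read at 20.2 CPM, while the other 3 control libraries lay between 23.0 and 23.4 CPM. The gap to the nearest library was 0.879 of the range of the group, above Dixon's limit for 4 samples. Chance gives such a gap in about 1 of 20 groups. *Tlr6* was not called in any comparison, with or without this library.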

How the results depend on the processing

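The 6 calls between ImmAMs and control mAMs held under every alternative that tested the gene. *Tlr1* was not tested with the filter at 5 CPM or without any 1 ImmAM library. Between RXR-deficient and control mAMs, the count of 0 members became 2 with DESeq2 and 1 (*Tlr7*) with *Xist* as a covariate, and ranged from 0 to 1 when libraries were left out. The count of pathway genes in that comparison, 4, became 13 with DESeq2, 2 without a variance trend and 2 with only the 2 groups, and ranged from 2 to 8 when libraries were left out. The count over all genes moved too, from 624 to 1352, 122 and 199 in the same settings. It ranged from 162 to 861 when libraries were left out. The cause was not tested. The counts in the other comparisons stayed within 1.5 times.

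Whether the replicate numbers pair the samples was not settled. Deviations of same-numbered libraries of different groups correlated at -0.1295 to 0.05896, and those of differently numbered libraries at -0.1539 to 0.2082. With 3 or 4 libraries per group, these values cannot exclude pairing. With the replicate block, *Tlr1* between ImmAMs and RXR-deficient mAMs lost its call (2.38, adjusted p = 0.0792), *Tlr7* gained one (0.44, adjusted p = 0.0439), *Myd88* between RXR-deficient and control mAMs lost its call (-0.31, adjusted p = 0.0807), as did *Cd36*, *Tab1* and *Inpp5d* between ImmAMs and RXR-deficient mAMs, and *Tlr8* between ImmAMs and control mAMs turned to 0.0746. With the block, 174 genes in place of 624 were called between RXR-deficient and control mAMs.

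Directions turned only in differences that were not called, with 1 library left out or, for *Tlr8*, with the replicate block. *Tlr8* between ImmAMs and control mAMs ranged from -0.152 (without control replicate 4) to 0.105 (without control replicate 1), and was 0.0490 without ImmAM replicate 3. Between ImmAMs and RXR-deficient mAMs, *Tlr6* ranged from -0.000514 (without ImmAM replicate 3) to 0.185, and *Tlr13* from -0.0387 (without RXR-deficient mAM replicate 2) to 0.294. Between RXR-deficient and control mAMs, *Tlr13* ranged from -0.0294 (without RXR-deficient replicate 3) to 0.303, and *Cd14* from -0.0368 (without RXR-deficient replicate 1) to 0.160, with -0.00856 without control replicate 3.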
